A study of Mus musculus with 12 samples.

Results

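Cholesterol and fatty acids are built from acetyl-CoA by a chain of enzymes whose genes are switched on by the sterol regulatory element-binding proteins (SREBPs). These factors are held in the endoplasmic reticulum by Insig proteins when sterols are plentiful, and are carried to the Golgi by Scap and cut free when sterols run low. Srebf2 encodes the form that mainly drives the sterol enzymes, and Srebf1 encodes the forms best known for the fatty acid branch. Dividing fibroblasts need both products for new membrane. The 29 genes described here were taken by name from a count table of 54447 features, and all 29 were present. They comprised 18 enzymes of sterol synthesis, 6 enzymes of the fatty acid branch, and 5 genes for SREBPs, their escort and retention proteins and a sterol carrier.

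RNA sequencing was performed on 12 libraries of cells labelled as mouse embryonic fibroblasts, which the study's methods name as the NIH3T3 line. N-VEGF is the portion cut from the front of a longer VEGF protein, and NLS-N-VEGF carries in addition a nuclear localization sequence. Each sequence was carried by a lentiviral vector under a doxycycline (dox)-inducible promoter in cells selected with puromycin, so all 4 groups carried a construct and the selection marker. The groups were NLS-N-VEGF cells without dox, NLS-N-VEGF cells with dox, N-VEGF cells without dox and N-VEGF cells with dox, with 3 libraries in each. Cells with no construct were not analysed here, so dox itself and the construct it induces cannot be told apart. The labels give no dose or time, and the time with dox is given only in the study's text. The labels do not say whether the libraries came from separate cultures, so the p-values measure the spread between these libraries, which may be technical. Each group had a library numbered 1 and a library numbered 2 with the suffix _120519, and a further library numbered 2 with the suffix _290419. The meaning of the suffix is not stated in the labels. Values given by library follow that order.

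Total counts lay between 13549331 and 18982127 per library. The row of the construct insert held 5 to 12 counts in the 6 libraries without dox, 35 to 173 in NLS-N-VEGF cells with dox and 121 to 268 in N-VEGF cells with dox. All 11 genes of a fibroblast list passed the filter on low counts and summed to 11270 to 14250 CPM, which are counts scaled to 1000000 counts of a library. Among them, Lum passed only through libraries of suffix _290419, with at most 1 count in each library of suffix _120519. Of 8 adipocyte genes 1 passed, their sum was 0.739 to 2.39 CPM, and Cebpa had 0 counts in every library. Library 1 of N-VEGF cells without dox stood apart, with 19976 genes detected against 20947 to 22889 in the others and 3.92% of counts on mitochondrial genes against 4.56% to 6.17%.

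All 29 genes were expressed, and each had at least 218 counts in every library. Together they took 0.603% to 0.811% of all counts. Scaled by exon length, the most abundant was Scd2, a stearoyl-CoA desaturase that makes monounsaturated fatty acids, at a mean of 347 CPM per kilobase. Acly, which splits citrate to supply cytosolic acetyl-CoA, followed at 135 CPM per kilobase, and Insig1, the sterol-responsive retention protein, at 98.1. The lowest were Dhcr7, the reductase of the last step to cholesterol, at 3.40 CPM per kilobase and Tm7sf2, a sterol reductase, at 4.66. Within the fatty acid branch, Scd1 stood at 57.8 CPM per kilobase, Fasn (fatty acid synthase) at 52.5, Elovl6 (an elongase) at 26.1 and Acaca (acetyl-CoA carboxylase) at 12.4. Srebf2 stood at 53.1 CPM per kilobase and Srebf1 at 12.1. A part of some transcripts cannot be told from neighbouring genes, and in unstranded libraries this includes neighbours on the other strand. The annotation placed exons of another gene, Gm43738 on the same strand, on 26.7% of the exon bases of Fdps. The share was 18.3% for Fdft1 (where the neighbour is Ctsb, on the other strand) and 13.2% for Scap.

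SREBPs bind sterol regulatory elements near the starts of their target genes, usually beside a CCAAT box. RefSeq promoter windows of 250 bases before to 50 after the gene start (GRCm38.p6) were on hand for 23 of the 29 genes. These genes had 29 windows, some genes having more than 1. The letters TCACNCCA, searched on both strands, occurred in 3 of the 29 windows (10.3%), each of a different gene, and in 4.36% of all 32851 windows. The longer spelling TCACCCCAC, which contains that shorter run, occurred in 1 of the 29 windows (3.45%), that of Hmgcs1, and in 0.551% of all windows. CCAAT occurred in 20 of the 29 windows (69.0%) and in 37.4% of all windows, and it was present in all 3 promoters shown. The 3 stretches with TCACNCCA that are shown are all the matches in these windows. Srebf2 and Hmgcs1 also had the lowest suffix ratios described below, while that of Msmo1 was near 0. Cyp51, Dhcr7 and Acly were also lower by suffix and had windows without a match. A link between these letters and the ratios was not tested. The spellings were chosen with the promoters in view, and a match is a description of letters, not a binding site. Capitals mark TCACNCCA, and each stretch is printed 5′ to 3′ on the strand of its gene, with the distance from the capitals to the RefSeq gene start, which can differ from the gene bounds in the count table.
Hmgcs1, chr13:119690203-119690232, plus strand, 137 bases before the start: acgtcaccgtcTCACCCCActtcccaggtc
Srebf2, chr15:82147096-82147125, plus strand, 162 bases before the start: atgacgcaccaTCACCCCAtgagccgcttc
Msmo1, chr8:64733737-64733766, minus strand, 177 bases before the start: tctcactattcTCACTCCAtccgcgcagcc

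The first question was whether dox moved the pathway in NLS-N-VEGF cells, where the induced protein carries the nuclear signal. None of the 29 genes passed the test in edgeR's quasi-likelihood F test (adjusted p under 0.05 over 13608 genes), against 0.0220% of all genes, and none passed in DESeq2. At an unadjusted p under 0.05 there were 3 of 29, Acat2, Nsdhl and Idi1, against 2.34% of all genes. The fitted values were small and mostly of the same sign. They were above 0 for 27 of 29 genes, and their median log2 fold change was 0.15. Of all genes 50.1% were above 0, with a median of 0.00. Genes of a shared pathway can move together in a single library. Counts of these genes, here and below, are therefore not counts of separate observations. The median was 0.16 in the 18 sterol enzymes, 0.15 in the 6 fatty acid genes and 0.02 in the 5 regulators and carrier.

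Among the mevalonate steps, the largest fitted values were those of Idi1 and Acat2. Idi1 (ENSMUSG00000058258, GRCm38 chromosome 13, 8885501 to 8892451), the isomerase of the isoprenoid unit, was at 215.9, 231.2 and 252.5 CPM in the libraries without dox, and at 298.1, 284.4 and 268.2 CPM in those with dox. Every library with dox lay above every library without it, and the fitted log2 fold change was 0.28 ± 0.13 (SE, adjusted p 1 in edgeR). Acat2, the cytosolic thiolase that opens the pathway, was at 156.9, 156.2 and 183.7 CPM in the libraries without dox, and at 209.7, 201.1 and 185.2 CPM in those with dox. Its groups did not overlap either, but the library of suffix _290419 without dox nearly met the lowest library with dox, and the fitted log2 fold change was 0.26 ± 0.09 (SE, adjusted p 1 in edgeR). Mvd, the decarboxylase, had a log2 fold change of 0.19, Pmvk and Mvk, the kinases before it, had 0.17 and 0.13, Hmgcs1 (HMG-CoA synthase) had 0.12 and Fdps (farnesyl diphosphate synthase) had 0.11.

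From squalene on, Nsdhl (ENSMUSG00000031349, chromosome X, 72918557 to 72958514), which removes the methyl groups of the sterol nucleus together with Msmo1 and Hsd17b7, was at 81.9, 81.2 and 117 CPM in the libraries without dox, and at 117, 113.6 and 124.1 CPM in those with dox. The library of suffix _290419 without dox lay within the range of those with dox, so the groups overlapped, and the fitted log2 fold change was 0.34 ± 0.14 (SE, adjusted p 1 in edgeR). Hsd17b7, the keto-reductase, had a log2 fold change of 0.28, and Cyp51, the lanosterol demethylase, had 0.24. Sqle, squalene epoxidase, was at 316.3, 319.4 and 331.6 CPM in the libraries without dox, and at 369.3, 373.6 and 336.5 CPM in those with dox, again without overlap. Its fitted log2 fold change was 0.16 ± 0.08 (SE, adjusted p 1 in edgeR). Sc5d, a desaturase, and Tm7sf2 had 0.17 and 0.16, Lss (lanosterol synthase) 0.15, Dhcr7 0.14, Fdft1 (squalene synthase) 0.12 and Msmo1 0.11. Ebp, the sterol isomerase, was the 1 enzyme with a fitted value below 0, at -0.05.

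In the fatty acid branch, Scd2 was at 1739, 1761 and 1836 CPM in the libraries without dox, and at 2029, 2085 and 1911 CPM in those with dox. Its groups did not overlap, and the fitted log2 fold change was 0.18 ± 0.11 (SE, adjusted p 1 in edgeR). Elovl6, also without overlap, was at 165.2, 161.6 and 163.7 CPM in the libraries without dox, and at 191.7, 206.5 and 166.5 CPM in those with dox, a fitted log2 fold change of 0.20 ± 0.13 (SE, adjusted p 1 in edgeR). Scd1 had a log2 fold change of 0.22, Acaca 0.13, Fasn 0.09 and Acly 0.07. Of the regulators and carrier, Stard4, a sterol carrier, had 0.16, Srebf2 0.07, Insig1 0.02, Srebf1 0.00 and Scap -0.04. The 4 genes for the SREBPs and their escort and retention proteins thus lay at the low end of the range.

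**Figure D1:**
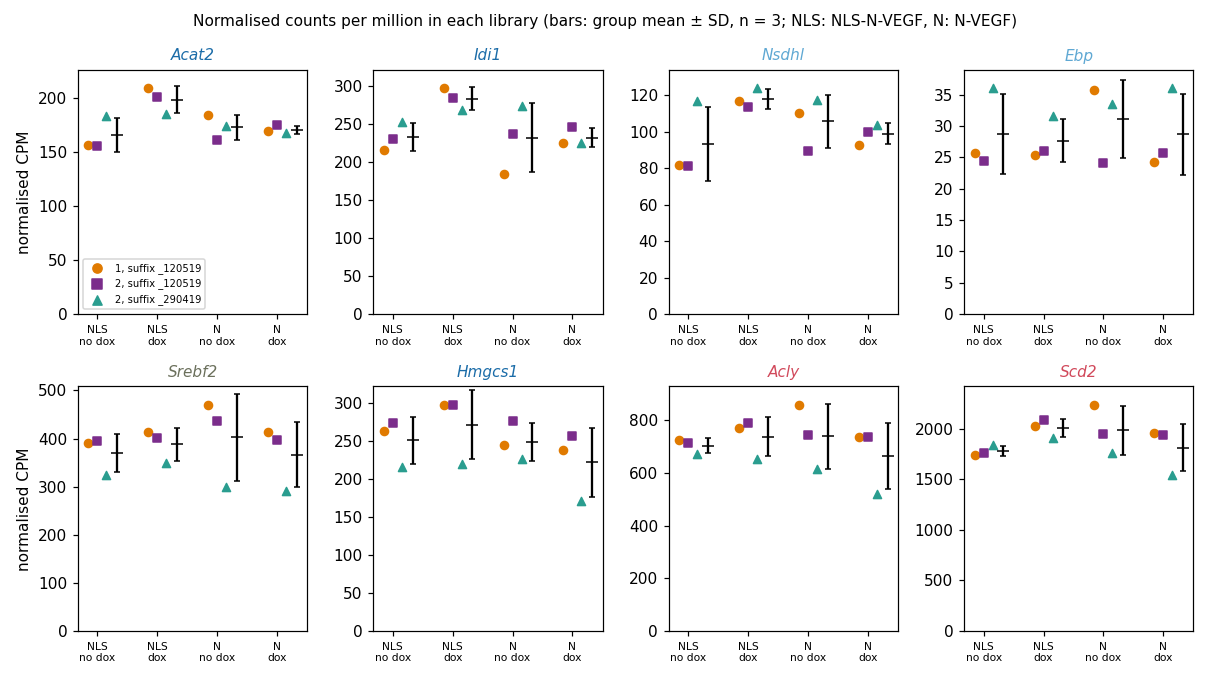
Normalised CPM of 8 of the genes in each of the 12 libraries, with circles and squares for libraries 1 and 2 of suffix _120519, triangles for library 2 of suffix _290419, and black bars for the group mean ± SD (n = 3). The 3 NLS-N-VEGF libraries with dox lie above those without dox in Acat2, Idi1 and Scd2, and the triangles lie lowest in every group in Srebf2, Hmgcs1 and Acly.

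Across all 3 libraries a group, 9 of 29 genes in NLS-N-VEGF cells had every dox library above every other, against 4.78% of all genes. They were Acat2, Mvk, Mvd, Idi1, Fdft1, Sqle, Lss, Scd2 and Elovl6. Read by pairs of libraries with the same label, 19 of 29 genes were higher with dox in all 3 NLS-N-VEGF pairs, against 17.2% of all genes. The pairs follow the labels, and pairing by number within a suffix was not shown. The size differed by suffix. In the pairs of suffix _120519 the median log2 ratio of the 29 genes was 0.21 and 0.19, and 26 and 27 of the 29 were higher with dox. In the pair of suffix _290419 the median was 0.02 and 21 of 29 were higher. For all genes tested the medians of the 3 pairs were 0.00, 0.01 and 0.00.

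Within the 2 libraries a group of suffix _120519, 26 of 29 genes had both dox libraries above both libraries without dox in NLS-N-VEGF cells, against 27.1% of all genes, and 2 of 29 (Srebf1 and Scap) had them below, against 24.9%. All 6 fatty acid genes and 17 of the 18 sterol enzymes, all but Ebp, were among the 26. A fit to these libraries alone called none of the 29, against 0.814% of 13387 genes, while 14 of 29 had an unadjusted p under 0.05, against 11.4%. The SEs of this fit rest on 2 libraries a group. In NLS-N-VEGF cells these disagreed by a chi-square per degree of freedom of 1.76 without dox and 5.02 with dox. Against the library of suffix _290419 the values were 17.07 to 23.15, so the SEs do not cover the spread between suffixes. The lowest adjusted p in this fit was that of Nsdhl (log2 fold change 0.49, SE 0.10, edgeR adjusted p 0.0564). Acat2 (0.38, SE 0.08, edgeR adjusted p 0.0683) and Cyp51 (0.33, SE 0.07, edgeR adjusted p 0.0738) came next. The construct row held 48 and 35 counts in these dox libraries and 173 in the dox library of suffix _290419, so the pairs with more of the pathway had fewer reads of the construct. Whether the ratios depend on the construct level was not tested.

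**Figure D2:**
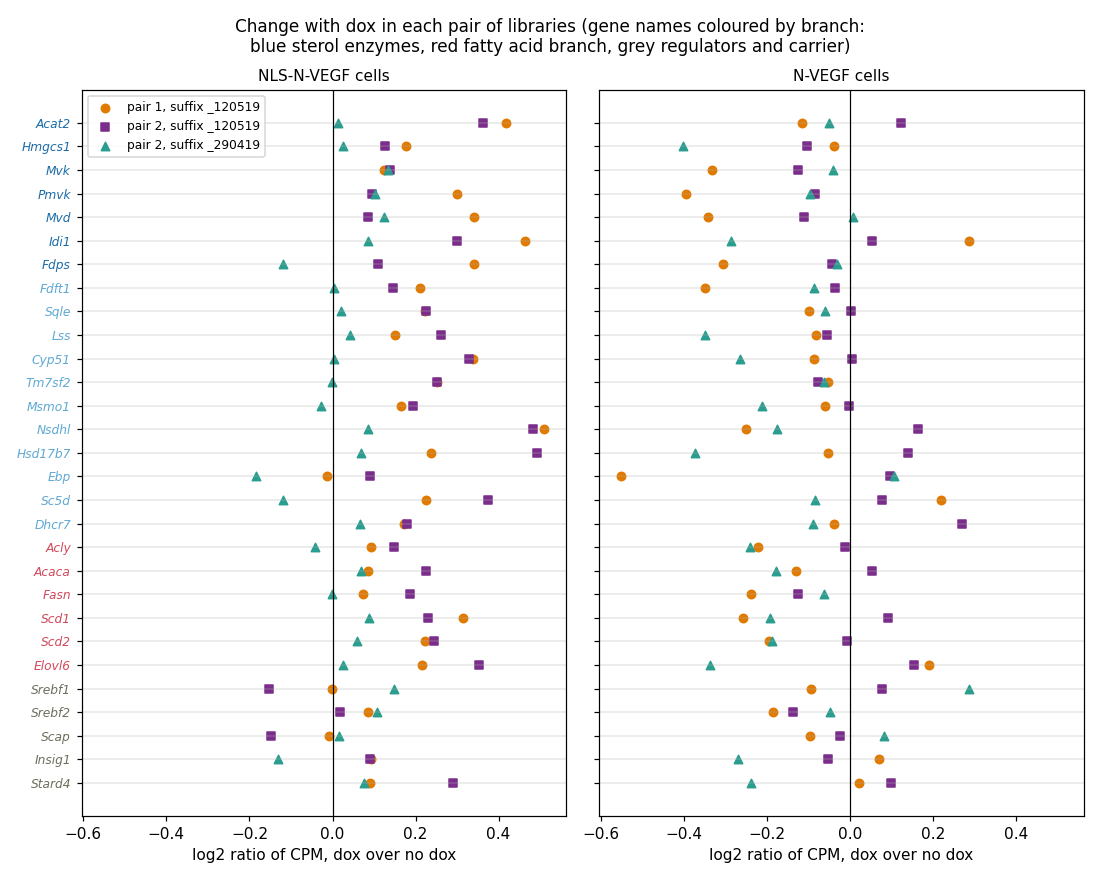
Log2 ratio of CPM (pseudocount 0.5) with dox over without dox for the 29 genes, in each pair of libraries with the same label, for NLS-N-VEGF cells on the left and N-VEGF cells on the right. In NLS-N-VEGF cells the circles and squares of suffix _120519 lie mostly right of 0 and the triangles of suffix _290419 near 0, and in N-VEGF cells most points lie at or left of 0.

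N-VEGF cells addressed the same question without the nuclear signal. None of the 29 genes passed the test in edgeR, against 0.0367% of all genes, none passed in DESeq2, and none had an unadjusted p under 0.05, against 1.48% of all genes. The fitted values were below 0 for 24 of 29 genes, with a median log2 fold change of -0.10, and the median was -0.10 in the sterol enzymes and -0.12 in the fatty acid branch. The lowest fitted value was that of Pmvk, at -0.21 (SE 0.12, edgeR adjusted p 1), followed by Mvk at -0.18, Fdft1, Mvd and Hmgcs1 at -0.17, and Acly, Lss and Fasn at -0.15. The 5 genes at or above 0 were Srebf1 (0.08), Sc5d (0.07), Dhcr7 (0.06), Elovl6 (0.02) and Idi1 (0.00). The lowest unadjusted p was 0.0934, for Fasn.

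The size of the fitted values in N-VEGF cells moved with single libraries. Library 1 without dox, the library that stood apart, was the highest of its group in 19 of 29 genes, against 36.0% of all genes, among them Scd2 at 2238 CPM against 1949 and 1758, Acly at 859 against 743 and 614, and Fdft1 at 211.8 against 163.8 and 151.4. It was the lowest of its group in 4 of 29, Idi1, Sc5d, Elovl6 and Insig1, against 38.8% of all genes. Without it, the median log2 fold change of the 29 genes in N-VEGF cells was -0.02 and 19 of 29 were below 0. The dox library of suffix _290419 was low in most of the genes, with 0.603% of its counts on them. Without it, the median was -0.01 and 17 of 29 were below 0. Within suffix _120519, 7 of 29 genes had both dox libraries below both libraries without dox in N-VEGF cells, against 17.7% of all genes, and 3 of 29 (Sc5d, Elovl6 and Stard4) had them above, against 21.3%. Over all 3 libraries a group, Msmo1 was the 1 gene lower with dox without overlap, against 1.79% of all genes.

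**Figure D3:**
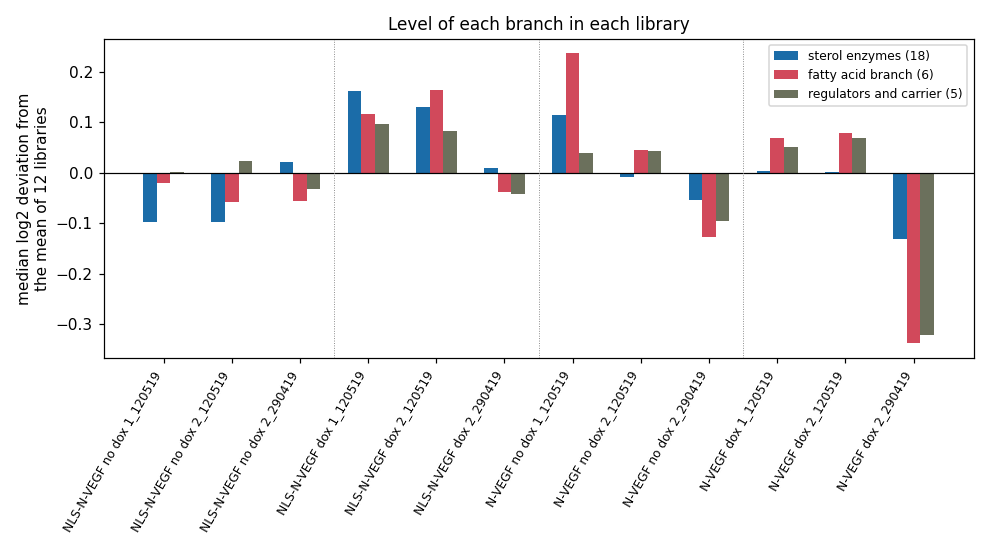
Level of each branch in each library, as the median over its genes of the log2 deviation of CPM from the gene's mean over 12 libraries, for the sterol enzymes, the fatty acid branch, and the regulators and carrier. The 2 NLS-N-VEGF dox libraries of suffix _120519 lie at 0.16 and 0.13 in the sterol enzymes, library 1 of N-VEGF cells without dox is the highest in the fatty acid branch, at 0.24, and the N-VEGF dox library of suffix _290419 is the lowest in all 3 groups of genes.

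The 2 dox effects were then compared with each other. With dox the construct row stood at 2.57, 2.58 and 10.2 CPM in NLS-N-VEGF cells. In N-VEGF cells with dox it stood at 7.56, 8.08 and 17.95 CPM. The nuclear signal, the population and the construct level thus cannot be told apart in any comparison of the populations. No gene of the 13608 passed the test of the difference (0%), and so none of the 29 did in edgeR or in DESeq2. At an unadjusted p under 0.05 there were 3 of 29 (Pmvk, Acat2 and Nsdhl), against 0.852% of all genes. The fitted difference, NLS-N-VEGF minus N-VEGF, was above 0 for 27 of 29 genes with a median of 0.23 on the log2 scale, against 51.3% of all genes and a median of 0.00. It was above 0 for all 18 sterol enzymes (median 0.28) and all 6 fatty acid genes (median 0.23), and the 2 exceptions were Srebf1 at -0.08 and Scap at -0.03. The largest differences were those of Nsdhl (0.44, SE 0.20), Pmvk (0.37, SE 0.16), Mvd (0.36, SE 0.21), Hsd17b7 (0.35, SE 0.19) and Cyp51 (0.34, SE 0.22), each with an edgeR adjusted p of 1. Part of this order rested on library 1 of N-VEGF cells without dox, which held 65.0 CPM of Pmvk against 48.3 and 51.8 and 95.1 CPM of Mvd against 79.3 and 59.1. Without it the difference was 0.24 for Pmvk and 0.19 for Mvd, 0.41 for Nsdhl, 0.33 for Hsd17b7 and 0.28 for Cyp51, and that of Idi1 was 0.42 in place of 0.28. Over the 29 genes the median was then 0.18, and 25 were above 0. Read by pairs, in N-VEGF cells 12 of 29 genes were lower with dox in all 3 pairs, against 10.9% of all genes, and 7 of 29 were both higher in all NLS-N-VEGF pairs and lower in all N-VEGF pairs, against 0.889%. With number and suffix as a replicate block, none of the 29 was called, and 13 of 29 had an unadjusted p under 0.05, against 3.41% of all genes.

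Mvk shows such a pattern in single libraries. In NLS-N-VEGF cells it was at 52.3, 52.6 and 54.9 CPM in the libraries without dox, and at 57.1, 57.9 and 60.3 CPM in those with dox, while in N-VEGF cells it was at 72.6, 55.8 and 54.1 CPM in the libraries without dox, and at 57.5, 51.2 and 52.5 CPM in those with dox. The values with dox overlapped little between populations, but the highest library of all was library 1 of N-VEGF cells without dox. Lss stood at 179, 173 and 183.8 CPM in uninduced NLS-N-VEGF cells, and at 198.7, 207.5 and 189.2 CPM in induced ones, and N-VEGF cells were at 200.7, 198.4 and 172.3 CPM in the libraries without dox, and at 189.5, 190.9 and 135.1 CPM in those with dox. In both genes the mean without dox was lower in NLS-N-VEGF cells than in N-VEGF cells.

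Populations were also compared at the same dox state. With dox, none of the 29 genes passed (0% of all genes), and 2 of 29, Acat2 and Idi1, had an unadjusted p under 0.05 against 1.18% of all genes. The fitted log2 ratio of NLS-N-VEGF over N-VEGF cells was above 0 for 27 of 29 genes, with a median of 0.15, which was 0.09 when the N-VEGF dox library of suffix _290419 was left out. Without dox none passed (0%), none had an unadjusted p under 0.05 (0.603% of all genes), and 21 of 29 were below 0, with a median of -0.08. Without library 1 of N-VEGF cells without dox, 21 of 29 were still below 0 and the median was -0.02. These comparisons share libraries with the dox effects above and are not separate support for them. Averaged over dox, none of the 29 genes passed between populations (0% of all genes), the median was 0.04, and none had an unadjusted p under 0.05 (1.22% of all genes). The dox effect averaged over both populations called none of the 29 either, against 0.0588% of all genes. None had an unadjusted p under 0.05, against 3.11%, and the median was 0.02, with the medians of the populations on opposite sides of 0. Without library 1 of N-VEGF cells without dox it was 0.07, and without the N-VEGF dox library of suffix _290419 it was also 0.07. DESeq2 called none of the 29 in these 4 comparisons.

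More of the 29 genes were called by the suffix of the label than by dox or by population. The tests are unlike, so these counts do not compare the sizes of the effects. The suffix test set 8 libraries against 4, while the dox test in each population set 3 against 3, with the suffix difference left in its spread. With group in the model, 15 of 29 genes differed between the suffixes, against 45.6% of all genes, so the share was close to that of any gene. Of the 29, 12 were lower in suffix _290419, against 23.5% of all genes, and 3 were higher, against 22.2%. In the fatty acid branch 4 of 6 were lower, none was higher and the median log2 ratio was -0.23. In the sterol enzymes 6 of 18 were lower, 2 were higher and the median was -0.06. The median of all genes was 0.01.

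Some marker genes of cell types were called by suffix too, as were 45.6% of all genes. Of the 11 fibroblast genes 4 were higher in suffix _290419, against 22.2% of all genes, and 4 were lower, against 23.5%. The next genes were chosen after their values were seen. Pdgfra, a growth factor receptor of fibroblasts, lay between 276 and 428 CPM in suffix _120519 and between 92.9 and 168 CPM in suffix _290419. Col3a1, a fibrillar collagen, lay between 405 and 645 and between 158 and 295 CPM, and Fn1 (fibronectin) between 3224 and 4036 and between 1973 and 2760 CPM. Thy1, S100a4 and Lum were higher in suffix _290419 without overlap, Lum at 0.335 to 1.86 CPM against at most 0.0628. Lum passed the filter only through suffix _290419, so its higher level there is no separate result. The summed level of 8 adipocyte genes was 0.739 to 1.45 CPM in suffix _120519 and 1.41 to 2.39 CPM in suffix _290419. Fabp4 was the 1 gene of that list tested, at 0.126 to 0.589 CPM in suffix _120519 and 0.947 to 1.92 CPM in suffix _290419. It passed the filter only through suffix _290419, so its higher level there is no separate result. For 5 immune genes the sums were 2.44 to 3.58 and 5.09 to 5.62 CPM, most of it Cd68 (2.44 to 3.52 and 5.02 to 5.39 CPM), while Cd3e had 0 counts in every library. Of the epithelial and endothelial genes 3 were tested and none was called, against 45.6% of all genes. The part of these markers in the suffix ratios of the 29 genes was not tested.

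Srebf2 (ENSMUSG00000022463, GRCm38 chromosome 15, 82147181 to 82205379) had the lowest ratio of the 29. Its 8 libraries of suffix _120519 lay between 390.1 and 470.5 CPM with a median of 407, and the 4 of suffix _290419 stood at 323.6 (NLS-N-VEGF, no dox), 348.9 (NLS-N-VEGF, dox), 299.9 (N-VEGF, no dox) and 290.2 CPM (N-VEGF, dox). The suffixes did not overlap, and the log2 ratio was -0.39 (SE 0.06, edgeR adjusted p 9.4e-05). Hmgcs1 (ENSMUSG00000093930, chromosome 13, 119690379 to 119708260), an SREBP target at the head of the sterol branch, lay between 238.2 and 298.5 CPM in suffix _120519 and had 216.6, 220.4, 226.3 and 171.2 CPM in suffix _290419. Its log2 ratio was -0.37 (SE 0.06, edgeR adjusted p 1.2e-04), again without overlap. Cyp51 also fell without overlap, from 277.4 to 355.6 CPM in suffix _120519 to 252, 252.6, 251.7 and 209.1 CPM in suffix _290419, a log2 ratio of -0.34 (SE 0.06, edgeR adjusted p 2.1e-04).

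In the fatty acid branch, Acly lay between 714 and 859 CPM in suffix _120519 and between 519 and 671 CPM in suffix _290419, and its log2 ratio was -0.31 (SE 0.07, edgeR adjusted p 0.00118). Scd1 (-0.29, edgeR adjusted p 0.00204) and Acaca (-0.26, edgeR adjusted p 0.00138) were also lower without overlap. Elovl6 was lower at -0.20 (edgeR adjusted p 0.0339). Scd2 and Fasn did not pass, with log2 ratios of -0.15 (edgeR adjusted p 0.0763) and -0.05 (edgeR adjusted p 0.439). Acly and Acaca supply the carbon units that Fasn joins, and the difference between these genes was not tested.

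The other called sterol genes that were lower were Dhcr7 (-0.30, edgeR adjusted p 0.0122), Mvd (-0.27, edgeR adjusted p 0.0067), Hsd17b7 (-0.23, edgeR adjusted p 0.0142) and Lss (-0.18, edgeR adjusted p 0.0386). Stard4 was lower by the same measure (-0.23, edgeR adjusted p 0.00356), without overlap. Ebp and Nsdhl, sterol enzymes encoded on the X chromosome, went the other way. Ebp lay between 24.0 and 35.8 CPM in suffix _120519, where 7 of the 8 libraries were at 26.0 CPM or below and library 1 of N-VEGF cells without dox was the highest, and between 31.6 and 36.1 CPM in suffix _290419. Its log2 ratio was 0.38 (SE 0.09, edgeR adjusted p 0.00251). Nsdhl rose by a log2 ratio of 0.24 (SE 0.07, edgeR adjusted p 0.00939), and without the NLS-N-VEGF library of suffix _290419 without dox it was not called (0.14, edgeR adjusted p 0.129). Scap, the escort of the SREBPs, was higher in every library of suffix _290419, at 67.4 to 72.4 CPM, than in any of suffix _120519, at 58.6 to 66.6 CPM (log2 ratio 0.19, SE 0.05, edgeR adjusted p 0.00765).

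The remaining sterol enzymes did not pass, and their log2 ratios lay between the -0.15 of Fdft1 (edgeR adjusted p 0.0795) and the 0.10 of Idi1 (edgeR adjusted p 0.336). Acat2 (0.01), Msmo1 (0.01), Mvk (-0.04), Tm7sf2 (0.05), Pmvk (0.06), Fdps (-0.06), Sc5d (-0.07) and Sqle (-0.07) were in between. Srebf1 (-0.05, edgeR adjusted p 0.558) and Insig1 (-0.12, edgeR adjusted p 0.125) did not pass either. In all, 7 of 29 genes lay lower in every library of suffix _290419 than in any of suffix _120519, against 14.9% of all genes. Scap was the 1 gene that lay higher, against 13.1%.

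**Figure D4:**
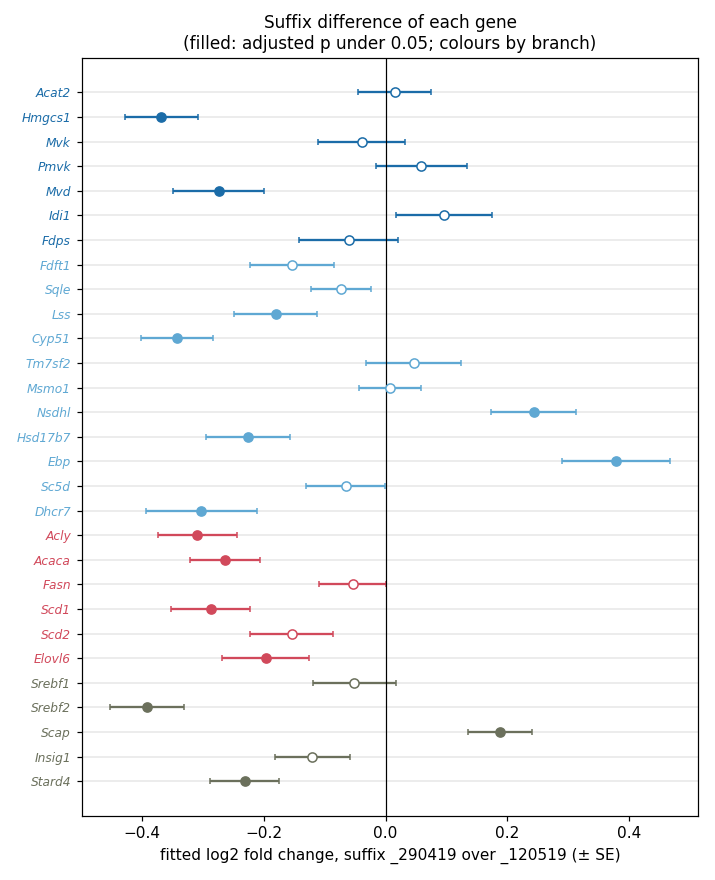
Fitted log2 fold change of each of the 29 genes in suffix _290419 over suffix _120519 with its standard error, from the model with group, filled where the edgeR adjusted p was under 0.05 and coloured by branch. Of the 6 fatty acid genes in red all lie left of 0 and 4 are filled, and the sterol enzymes in blue spread from Hmgcs1 at -0.37 to Ebp at 0.38.

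The suffix ratio was not alike in every group. In N-VEGF cells 25 of 29 genes with dox and 22 of 29 without dox were lower in suffix _290419, with medians of -0.19 and -0.20. In NLS-N-VEGF cells 22 of 29 were lower with dox (median -0.14), but without dox 11 of 29 were lower and 18 were higher (median 0.06). The NLS-N-VEGF libraries of suffix _120519 without dox were the lowest of that suffix in the sterol enzymes. The difference of the dox effect between suffixes was tested over both populations, and none of the 29 passed (0% of all genes) in edgeR or DESeq2. At an unadjusted p under 0.05 there were 10 of 29, against 6.81% of all genes, and 22 of 29 fitted differences were below 0, with a median of -0.14. Elovl6 (-0.38, SE 0.11), Idi1 (-0.37, SE 0.13) and Hsd17b7 (-0.36, SE 0.11) had the lowest values, each with an edgeR adjusted p of 0.728.

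Other genes of lipid supply came from a list of 22, of which 21 were tested. Some were called by suffix, as were 45.6% of all genes, so such calls are not particular to this list. None of the 21 was called in edgeR for dox in NLS-N-VEGF cells (0.0220% of all genes) or N-VEGF cells (0.0367%). None was called for the difference of the dox effects (0%). Unadjusted p-values under 0.05 numbered 2 in NLS-N-VEGF cells (2.34% of all genes), 1 in N-VEGF cells (1.48%) and 2 for the difference (0.852%). By suffix 7 of 21 were lower, against 23.5% of all genes, and 2 were higher, against 22.2%, at a median log2 ratio of -0.10. Lpin1, a phosphatidate phosphatase, fell from a median of 42.4 to 25.6 CPM (log2 ratio -0.75, SE 0.08, edgeR adjusted p 3.8e-06), and Gpam, which starts glycerolipid synthesis, from 28.1 to 19.3 CPM (-0.53, SE 0.07, edgeR adjusted p 2.7e-05). Mbtps1, the protease that makes the first cut in SREBPs, fell from 252.2 to 197.7 CPM (-0.37, SE 0.05, edgeR adjusted p 6.1e-05). Me1, the malic enzyme that supplies NADPH, rose from 96.4 to 122.8 CPM (0.35, SE 0.06, edgeR adjusted p 1.4e-04).

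Targets of the sterol-sensing liver X receptors and sterol esterification were read beside them, and 5 of 8 listed genes passed the filter. Of the 5, Soat1, which esterifies cholesterol, was higher in suffix _290419 (0.34, SE 0.07, edgeR adjusted p 9.3e-04), while Lpcat3 (-0.28, edgeR adjusted p 0.00416) and Mylip (-0.24, edgeR adjusted p 0.0133) were lower. By suffix 45.6% of all genes were called, so such calls are not particular to this list. None of the 5 was called for dox, against 0.0220% of all genes in NLS-N-VEGF cells and 0.0367% in N-VEGF cells. Of 17 proliferation genes, which mark dividing cells, 6 were higher in suffix _290419, against 22.2% of all genes, 3 were lower, against 23.5%, and none was called for dox. Birc5 was higher (0.35, edgeR adjusted p 7.1e-05), as was Rrm2 (0.29, edgeR adjusted p 0.00248), and Mki67 (-0.33, edgeR adjusted p 0.001) and Tyms (-0.27, edgeR adjusted p 8.9e-04) were lower. Their summed level was 3652 to 4101 CPM in suffix _120519 and 3605 to 3933 CPM in suffix _290419, and its part in the suffix ratios was not tested.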

How the data were processed

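RNA was prepared with an unstranded TruSeq kit and sequenced as single reads. Per the labels, reads were trimmed with Trim Galore and cutadapt 1.10, aligned to GRCm38 with TopHat2 2.1.0 and Bowtie2 2.2.6, and counted with HTSeq 0.6.1. The authors deposited the counts unscaled, as whole reads for each gene. Counts were tested with edgeR 4.0.16 in R 4.3.3 (filterByExpr by group, TMM scaling, 1 mean per group, quasi-likelihood F test, two-sided, Benjamini-Hochberg over 13608 genes, threshold 0.05). The suffix was tested with group in the model, and the difference of dox effects between suffixes with their interaction. CPM used the TMM-scaled library size. Exon lengths came from GENCODE M21, and coordinates from the deposited table. Scripts were tested on simulated data.

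Alternatives were DESeq2 1.42.0, other scalings, filters, left-out libraries and a replicate block. Deviations from group means correlated at 0.35 or more (mean 0.56) in all 18 pairs of libraries from different groups that shared number and suffix. In the 36 pairs that did not share both, the correlation lay between -0.72 and 0.63 (mean -0.24). The deviations hold the suffix difference, so these values cannot show that libraries are paired by number within a suffix. No replicates agreed within sampling noise (chi-square per degree of freedom 1.76 to 76.1). Depth sets a floor of 3 counts, or 0.158 to 0.221 CPM, which covers counting error only. All 29 genes were named, with up to 4 called genes of largest change from each other list. The genes, lists and comparisons were chosen with earlier results of these data known.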

Additional observations from a re-analysis of the deposited data

Results flagged for a closer look

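In 7 genes every NLS-N-VEGF pair was higher with dox and every N-VEGF pair was lower. Some of these log2 ratios were near 0. Fdft1 was at 0.004 in the NLS-N-VEGF pair of suffix _290419, and Scd2 at -0.007 in N-VEGF pair 2 of suffix _120519. The genes were picked by these signs, so differences above 0 follow from the pick. The log2 differences of the dox effects were 0.28 for Hmgcs1, 0.31 for Mvk, 0.37 for Pmvk, 0.29 for Fdft1, 0.30 for Lss, 0.30 for Scd2 and 0.20 for Srebf2. Without library 1 of N-VEGF cells without dox, the library that stood apart, they were 0.29 for Hmgcs1, 0.17 for Mvk, 0.24 for Pmvk, 0.14 for Fdft1, 0.26 for Lss, 0.21 for Scd2 and 0.07 for Srebf2. The difference itself was tested in edgeR and DESeq2 and none of the 7 passed, with an edgeR adjusted p of 1 in each.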

How the results depend on the processing

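In the 8 comparisons of dox, population or dox by suffix, 0 of 29 genes were called under every alternative that was run. These were DESeq2, RLE scaling, total counts alone, both other filters on low counts and each left-out library, and, where the comparison allowed, the suffix term and suffix _120519 alone. With the replicate block the counts were also 0, and for the suffix it was 15. The suffix comparison called 15 genes, 16 with DESeq2 and 17 with the libraries numbered 2 alone. No called gene changed direction. Fitted values that did not pass changed sign under some alternatives, in up to 4 of 29 genes for dox in NLS-N-VEGF cells, 7 in N-VEGF cells, 3 for the difference of the dox effects and 9 for the populations averaged over dox, the last without library 1 of N-VEGF cells without dox. Among single genes in the suffix comparison, Lss and Elovl6 were lost with total counts alone (adjusted p 0.0655 and 0.0593), with at least 10 counts in every library (0.0624 and 0.0559) and without the group term (0.0643 and 0.06), and Scap with the loosest filter (0.0904). Leaving out the N-VEGF dox library of suffix _290419 lost Lss, Elovl6, Hsd17b7 and Dhcr7. The causes were not tested. Standard errors of the dox effect lay between 0.07 and 0.20 on the log2 scale in these genes. They are not a limit of detection, since Acat2 and Nsdhl had fitted values well above theirs and did not pass. The main model also left the suffix difference in the spread. For dox in NLS-N-VEGF cells, 318 of 13608 genes had an unadjusted p under 0.05 in edgeR, and 992 with a suffix term. A gene that was not called is thus not shown to be unchanged.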
